A study of Mus musculus with 8 samples.

Results

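The genes examined were 8 genes of the myoepithelial cell of the mammary gland, the basal regulator Trp63, the contractile genes Acta2, Myh11, Cnn1, Tagln, Mylk and Lmod1, and the receptor Oxtr. They were taken by name from a list of 21938 protein-coding genes (GENCODE M21, mm10). For each, the peaks of histone H3 acetylated at lysine 27 (H3K27ac) lying in the gene body and 50 kb on either side, called its locus here, were taken from the peak lists of 4 mouse breast tumors. Control tumors (n = 2) were PyMT;Rag1KO and test tumors (n = 2) were K14-TSLPtg;PyMT;Rag1KO. Both groups were Balb/c mice that carried the polyoma middle T oncogene and lacked Rag1, so that they made no T or B cells of their own. Both groups also received wild-type CD4+ T cells by injection at 4 weeks of age, and their tumors were taken at terminal size. The test mice differed by a transgene that placed the cytokine TSLP (thymic stromal lymphopoietin) under control of the keratin 14 promoter, which is active in basal epithelial cells. In the sample titles the control samples are called tumor and the test samples cyst. Each sample was a piece of whole tissue, so fewer myoepithelial cells and less acetylation per cell cannot be told apart in any value below.

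Myoepithelial cells form the outer, contractile layer of mammary ducts and alveoli and lie on the basement membrane. They are epithelial cells that express p63, the product of Trp63, together with a smooth muscle set of actin, myosin and actin-binding proteins, and they squeeze milk from the alveoli when oxytocin binds its receptor. H3K27ac marks active promoters and enhancers, and smooth muscle genes are classically switched on by serum response factor (SRF) bound to the CArG box. In breast pathology the layer is present around benign and in situ lesions and is lost in invasive carcinoma.

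The 4 lists held 59762 to 69861 peaks that covered 64.3 to 73.1 Mb, with the fewest peaks and the least covered sequence in test 2. The lists give positions without scores, so the strength of a peak and the depth of sequencing are unknown. Locus coverage, the percent of bases of a locus inside peaks, was lowest in test 2 for 43.3% of the 18693 genes with any coverage, and test 2 therefore stood apart in general. No peak lay within 1 kb of the Tslp gene in any tumor (0 peaks each), and 1 peak lay at Rag1 in each. With 2 tumors per group, the exact permutation test has 3 splits and its p cannot go below 0.333. A gene was therefore described as higher in a group only where both tumors of that group exceeded both of the other.

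The first comparison asked how much of the myoepithelial loci was acetylated with and without the TSLP transgene. Both control tumors exceeded both test tumors at 3 of the 8 genes, Trp63, Acta2 and Oxtr, where 13.0% of all genes did so. Both test tumors were higher at 0 of the 8, against 17.3% of all genes, and the groups overlapped at the other 5, so that 3 of 8 loci had groups apart beside 30.3% of all. At these 5 the exact permutation p, two-sided, was 0.667 to 1. The median difference over the 8 genes was -0.46 percentage points (test minus control) beside 0.02 over all genes. Test 2 was the lowest tumor at 6 of the 8. Without test 2, Trp63, Acta2 and Oxtr were still higher in both control tumors than in test 1 (background 20.5%), Myh11, Tagln and Lmod1 were higher in test 1 (background 48.5%), and the median difference was 0.05 beside 0.23 over all genes. At Oxtr, control 2 exceeded test 1 only through a peak 61.5 kb from the start, found in that tumor alone. The sum of the 8 locus percentages, in which short and long loci count alike, was 72.6 and 72.3 in control and 73.8 and 53.3 in test tumors. The sum thus separated test 2 from the other tumors and not the test group from the control group.

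**Figure D1:**
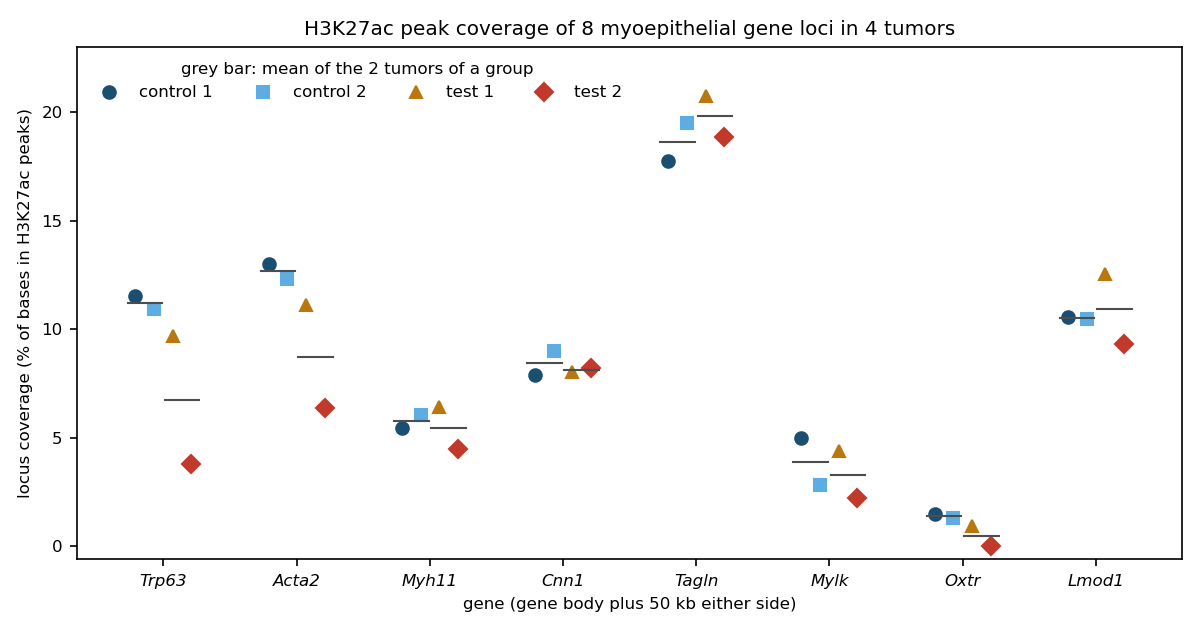
Locus coverage (y axis, percent of bases in H3K27ac peaks) of the 8 genes (x axis) in each tumor, with grey bars for the mean of the 2 tumors of a group. At Trp63 the control tumors are at 11.5% and 10.9%, test 1 at 9.69% and test 2 at 3.79%, whereas at Tagln all 4 tumors lie between 17.7% and 20.8%.

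Trp63 encodes p63, the transcription factor that maintains basal epithelium. The gene lies on chr16:25683763-25892102, plus strand, and its locus spans 308.34 kb with no start of another protein-coding gene inside it. Its locus coverage was 11.5% in control 1 and 10.9% in control 2, against 9.69% in test 1 and 3.79% in test 2. Both test tumors were below both control tumors, and test 2 was far lower than test 1. The means were 11.2% ± 0.445 in control and 6.74% ± 4.18 in test tumors (SD, n = 2 each), a difference of -4.49 percentage points (exact permutation test, two-sided, p = 0.333). A difference this low or lower was found in 1.36% of all covered genes. As a ratio, test 2 had 0.337 of the control mean, and 6.82% of genes covered in a control tumor had a ratio as low. Without test 2 the difference was -1.53 percentage points. In the gene body alone Trp63 had 16.8% and 15.9% in control and 14.1% and 5.46% in test tumors, the 1 gene of the 8 with both control tumors higher there (13.4% of all genes). The number of peaks was 33 in each control tumor, 27 in test 1 and 12 in test 2.

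Trp63 has an upstream start, from which the full-length TA forms are made, and an internal start 118153 bp downstream (chr16:25801916) for the shorter ΔN forms, the main forms of basal epithelium. No tumor had a peak within 1 kb of the upstream start. Around the internal start, peaks covered 642 bp in control 1 and 253 bp in control 2, against 805 bp in test 1 and 0 bp in test 2. Acetylation at a Trp63 start was thus seen at the internal start alone, in 3 of the 4 tumors, and was widest in test 1. The start itself lay inside a peak in test 1 only, one of 754 bp.

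The peaks of the 4 lists were joined into regions where they overlapped or touched, and 42 regions fell in the Trp63 locus, 39 of them in the gene body away from its starts. A peak was present at 30 of the 42 in control 1 (67.4% of all regions had one), 31 in control 2 (64.0%), 22 in test 1 (63.5%) and 10 in test 2 (57.0%). All 10 regions with a peak in test 2 also had one in every other tumor. A further 8 regions were present in every tumor except test 2, and 5 were control-only, that is, found in each control tumor and missing from each test tumor. The widest of those missing in test 2 alone lay 165.8 kb from the 5′ end and was covered for 3006, 2821 and 2082 bp in control 1, control 2 and test 1. In 9 of the 10 shared regions test 2 also had the shortest covered length, as did 35.8% of all regions shared by the 4 tumors. The median covered length relative to the control mean was 0.533 in test 2 and 0.928 in test 1, beside 0.974 and 1.05 over all 34804 shared regions. In test 2 the acetylated regions of Trp63 were therefore both fewer and narrower.

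The widest region of Trp63 present in all 4 tumors was chr16:25864623-25870730 (6108 bp), which holds introns, exons and annotated untranslated sequence of the gene. It was covered for 4414 and 6072 bp in the control tumors and for 4249 and 2420 bp in the test tumors. The widest control-only region of all 8 loci was also in Trp63, an intronic region at chr16:25825368-25826132 (765 bp), covered for 765 bp in control 1 and 158 bp in control 2. Its central 300 bases (chr16:25825600-25825899, plus strand, GRCm38) are printed as the centre of that region. They lie in the peak of control 1, and the shorter peak of control 2 reaches only their last few bases. It holds no CArG box, so no letters are in capitals.
Trp63 control-only region: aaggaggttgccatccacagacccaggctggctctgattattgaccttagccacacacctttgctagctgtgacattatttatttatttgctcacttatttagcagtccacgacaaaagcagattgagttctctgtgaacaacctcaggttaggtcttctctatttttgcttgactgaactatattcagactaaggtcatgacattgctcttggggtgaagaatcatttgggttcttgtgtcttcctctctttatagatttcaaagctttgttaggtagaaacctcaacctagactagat

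**Figure D2:**
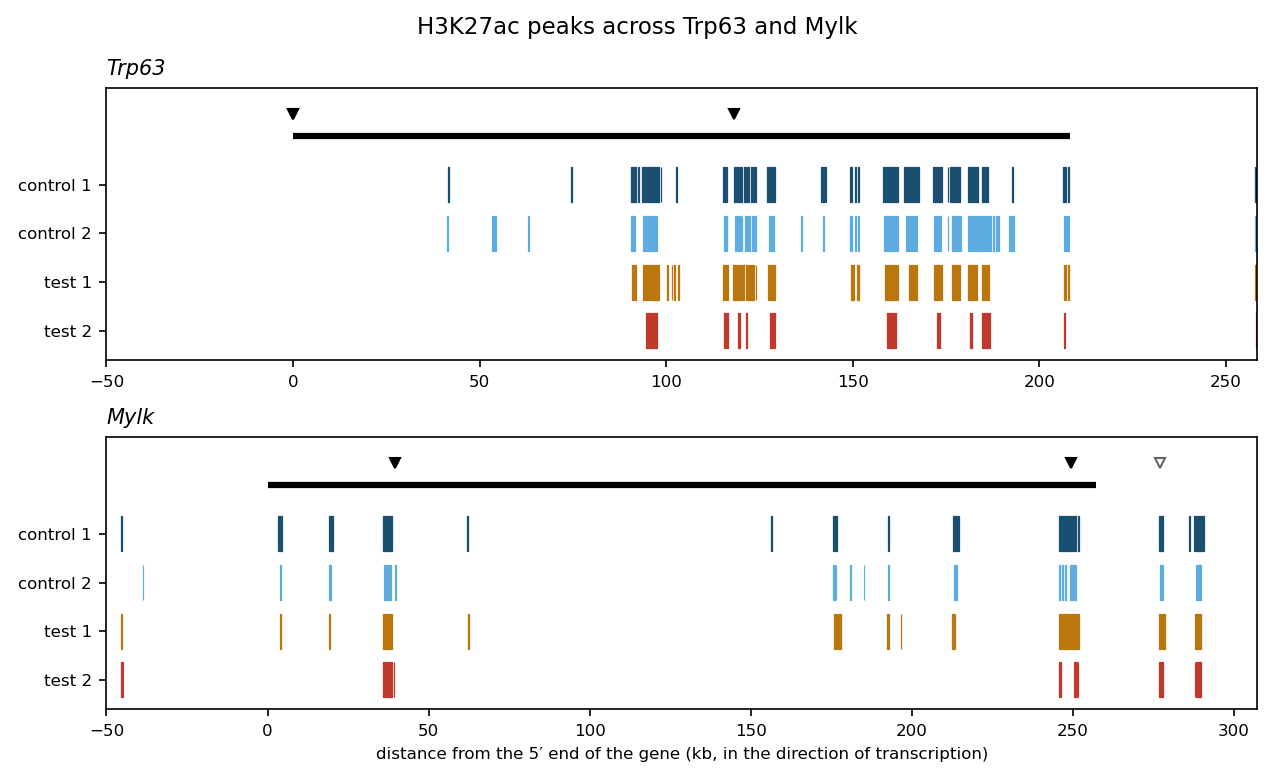
Peaks (coloured blocks) in each tumor along Trp63 and Mylk, by distance from the 5′ end of the gene in kb (x axis), with the gene as a black bar, starts of its protein-coding transcripts as filled triangles and starts of other genes as open ones. Most peaks of Trp63 lie between a stretch upstream of the internal start and the 3′ end in all tumors, none at the upstream start, and test 2 holds 12 of them where the other tumors hold 27 to 33.

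Acta2 encodes smooth muscle alpha-actin, the filament protein of the contractile layer and the most used marker of it. It lies on chr19:34241090-34255590, minus strand, next to Fas, a death receptor, and Stambpl1, a deubiquitinase. Locus coverage in the control tumors was 13.0% and 12.3%, and it was 11.1% in test 1 and 6.38% in test 2. The order of the tumors was the same as at Trp63, with test 2 far below the rest. The means were 12.7% ± 0.513 in control and 8.74% ± 3.33 in test tumors (SD, n = 2 each), a difference of -3.92 percentage points (exact permutation test, two-sided, p = 0.333), and 1.90% of all covered genes had a difference as low. As a ratio, test 2 had 0.504 of the control mean, and 10.8% of genes covered in a control tumor had a ratio as low. Without test 2 the difference was -1.57. Peaks at the starts of neighbouring genes were part of this coverage. Without them it was 7.71%, 6.74%, 6.08% and 3.85%, a difference of -2.26. In the gene body alone the groups overlapped, at 8.88% and 4.66% in control and 7.70% and 0% in test tumors. The promoter of Fas was likewise marked by a peak in every tumor but test 2, whereas that of Stambpl1 had one in all 4. The Fas and Acta2 promoters thus had peaks in the same 3 tumors.

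Within 1 kb of the Acta2 start, peaks covered 877 bp in control 1 and 244 bp in control 2, against 336 bp in test 1 and 0 bp in test 2. Acta2 is known to depend on CArG boxes in its promoter and first intron, and their surroundings are printed so that the marked sequence can be read. A CArG box is CC, 6 letters that are each A or T, and GG, which reads as a CArG box on both strands. No such box lay in the 300-base promoter window of RefSeq (250 bases before the start, 50 after, GRCm38.p6) of any of the 5 genes present in that table, Acta2, Cnn1, Mylk, Oxtr and Lmod1, where 1.63% of 32851 windows held one. With 1 C or G allowed among the middle 6 letters, a rule chosen after the Acta2 window was seen, 9.98% of the windows held a box and Acta2 alone of the 5 did, at 84 and 34 bases before the RefSeq start. The GENCODE start lies upstream of both. The first of them lay in a peak of control 1 only and the second in no peak.
Acta2 box 84 bases before the RefSeq start (chr19:34255438-34255467, minus strand, box in capitals): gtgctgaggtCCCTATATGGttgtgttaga
Acta2 box 34 bases before the RefSeq start (chr19:34255388-34255417, minus strand, box in capitals): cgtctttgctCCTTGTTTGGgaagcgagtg

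Strict CArG boxes lay in 3 regions of the Acta2 locus, one in the first intron, one beyond the 3′ end of the gene and one upstream. The intronic region, chr19:34254142-34255030, was covered for 889 bp in control 1 and 415 bp in control 2, against 431 bp in test 1 and 0 bp in test 2, and the box itself was inside the peak of control 1 only. This region also holds another annotated start of Acta2 (chr19:34254230), and the box lies just upstream of that start. The region 21.8 kb from the 5′ end, past the 3′ end and inside Stambpl1, was covered for 1710, 1967 and 1169 bp in control 1, control 2 and test 1 and for 0 bp in test 2. Its box was inside the peak in each of those 3 tumors. The upstream region was covered for 1142, 1154 and 1065 bp in the same tumors and for 237 bp in test 2, where the peak did not reach the box. All 3 boxes of Acta2 were thus outside the peaks of test 2. Each is shown in 100 bases of GRCm38, on the strand of the gene, with the box in capitals.
Acta2 first intron (chr19:34254243-34254342): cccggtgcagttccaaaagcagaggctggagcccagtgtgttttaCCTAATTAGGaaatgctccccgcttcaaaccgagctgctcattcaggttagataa
Acta2 21.99 kb downstream of the 5′ end (chr19:34233549-34233648): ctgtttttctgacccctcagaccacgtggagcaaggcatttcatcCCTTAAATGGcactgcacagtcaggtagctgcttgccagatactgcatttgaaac
Acta2 10.25 kb upstream of the 5′ end (chr19:34265789-34265888): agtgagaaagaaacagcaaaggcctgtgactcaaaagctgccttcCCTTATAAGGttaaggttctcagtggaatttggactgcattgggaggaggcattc

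Mylk encodes myosin light chain kinase, which calcium signalling activates to start contraction, and its 3′ part is also known to give telokin, a short product without kinase activity, from an internal promoter. It lies on chr16:34745210-35002420, plus strand. Locus coverage was 4.97% in control 1 and 2.81% in control 2, against 4.38% in test 1 and 2.20% in test 2. The groups overlapped, with control 1 and test 1 high and control 2 and test 2 low, and the difference of -0.60 percentage points was smaller than the spread (SD 1.78 over the 4 ways to pair a test tumor with a control tumor). Test 2 had 9 peaks and the other tumors 18 to 20, and 5 regions of Mylk were missing in test 2 alone. The start of the upstream protein-coding transcript (chr16:34784921) had a peak within 1 kb in control 2 (158 bp) and test 2 (315 bp). A region just upstream of it, chr16:34781140-34783984, was present in all 4 tumors, covered for 2693, 2338, 2651 and 2844 bp, and was widest in test 2.

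The internal start of Mylk near its 3′ end (chr16:34994807) was the one annotated start of the 8 genes with a peak within 1 kb in every tumor. The peaks there covered 2001 bp in control 1 and in test 1, the whole window, 896 bp in control 2 and 62 bp in test 2. A peak at any annotated start in all 4 tumors was thus found for 1 of the 8 genes, against 52.7% of all genes. The region around it, chr16:34992621-34996391 (3771 bp), was covered for 3707, 1643, 3731 and 646 bp in control 1, control 2, test 1 and test 2. It holds 2 CArG boxes, one of which spans the start itself and was inside the peak in control 1 and test 1. The 150 bases up to the end of that box are printed because the box and the start coincide (chr16:34994659-34994808, plus strand, GRCm38, box in capitals).
Mylk internal start: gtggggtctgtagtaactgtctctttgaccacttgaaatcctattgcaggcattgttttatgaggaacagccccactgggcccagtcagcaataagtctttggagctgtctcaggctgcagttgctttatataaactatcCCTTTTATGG

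Tagln encodes transgelin, an actin-binding protein of smooth muscle. It lies on chr9:45929619-45936058, minus strand, among broadly acetylated neighbours. Its locus coverage was the highest of the 8 in all 4 tumors, at 17.7% in control 1 and 19.5% in control 2, against 20.8% in test 1 and 18.9% in test 2. The groups overlapped and the difference was 1.21 percentage points, within the SD of 1.49 over the pairings. Much of this coverage lay away from the gene, where the promoters of Rnf214, Pcsk7 and Sidt2 had peaks in all 4 tumors. Within 1 kb of the Tagln start peaks covered 522 bp in control 1 and 172 bp in control 2, against 182 bp in test 1 and 0 bp in test 2. The order of the tumors was that seen at the Acta2 start, with control 1 highest, test 1 above control 2 and no peak in test 2. Just upstream of the start lay a control-only region, chr9:45936291-45936528 (238 bp). In the gene body coverage was 10.3% and 0% in control and 16.3% and 11.1% in test tumors, and Tagln was the 1 gene of the 8 where both test tumors exceeded both control tumors in this measure (18.0% of all genes).

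Cnn1 encodes calponin 1, which binds actin and slows myosin, and lies on chr9:22099216-22109630, plus strand. Its locus coverage was 7.87% in control 1 and 9.00% in control 2, against 8.04% in test 1 and 8.22% in test 2, with overlapping groups and a difference of -0.30 percentage points. Inside the gene the only peak of any tumor was one of 165 bp near the start in control 1. The coverage of the locus came from outside the gene, with peaks in all 4 tumors at the starts of Zfp653, Gm49318, Ecsit, Elof1 and Pigyl and none in any tumor at Elavl3 and Acp5. The widest region present in all 4 tumors, chr9:22130783-22132908, lay 32.6 kb from the start and was covered for 1491, 2098, 1375 and 1985 bp in the order of the tumors given. The widest control-only region, chr9:22125976-22126300 (325 bp), lay between genes.

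Myh11 encodes the smooth muscle myosin heavy chain, the motor of the contractile filament and among the most restricted of smooth muscle proteins. It lies on chr16:14194535-14291372, minus strand. Locus coverage was 5.46% in control 1 and 6.06% in control 2, against 6.39% in test 1 and 4.48% in test 2, a difference of -0.32 percentage points with overlapping groups. The gene itself was nearly free of peaks, with 157 bp in control 1 and 519 bp in test 1 of a region 1.37 kb from the start and nothing else. No tumor had a peak within 1 kb of any Myh11 start. Most of the coverage lay at the starts of Marf1, Nde1 and Fopnl, all with a peak in every tumor, and at a region inside Nde1, chr16:14180927-14186487 (5561 bp), that was covered for 4523, 4875, 5335 and 3087 bp. A smaller region inside Marf1, chr16:14158471-14159214, was covered for 716, 691, 725 and 683 bp.

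Lmod1 encodes leiomodin 1, which starts actin filaments in smooth muscle, and lies on chr1:135324807-135368065, plus strand. Its locus coverage was 10.5% in both control tumors, 12.6% in test 1 and 9.33% in test 2. The test tumors lay on either side of the control tumors, and the difference was 0.44 percentage points. In the gene body coverage was 15.3% and 15.5% in control and 16.2% and 7.46% in test tumors. No tumor had a peak within 1 kb of the start, but a region 1.67 kb upstream was present in all 4 and was wider in both test tumors, at 311 and 325 bp in control and 1081 and 1162 bp in test tumors. The widest region of the locus, chr1:135362968-135369248 (6281 bp), spans the 3′ end of the gene and had peaks in every tumor, although in test 2 no peak lay on the gene end itself. Lmod1 held both of the test-only regions found in the 8 loci. One of them, intronic at chr1:135330883-135331496 (614 bp), was covered for 614 bp in test 1 and 161 bp in test 2, and lay beside a control-only region, chr1:135330578-135330849 (272 bp), in the same intron. The other, chr1:135311111-135311441 (331 bp), lay 13.5 kb upstream of the start, close to a peak of control 1 at chr1:135311554-135311809. The central 300 bases of the intronic test-only region (chr1:135331040-135331339, plus strand, GRCm38) are printed as the counterpart of the Trp63 sequence. They lie in the peak of test 1, and the shorter peak of test 2 covers only their first part. They hold no CArG box either.
Lmod1 test-only region: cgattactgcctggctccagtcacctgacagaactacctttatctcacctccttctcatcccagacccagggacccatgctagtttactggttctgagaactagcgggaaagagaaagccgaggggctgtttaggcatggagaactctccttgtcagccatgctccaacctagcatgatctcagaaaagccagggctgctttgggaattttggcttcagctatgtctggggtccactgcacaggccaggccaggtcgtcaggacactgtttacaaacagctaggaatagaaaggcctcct

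Oxtr encodes the oxytocin receptor, through which the myoepithelial layer is told to contract, and lies on chr6:112473683-112489943, minus strand. It was the least covered of the 8 loci in every tumor. Locus coverage was 1.47% in control 1 and 1.28% in control 2, against 0.914% in test 1 and 0% in test 2, with 4, 2, 3 and 0 peaks. Both test tumors were below both control tumors, by -0.92 percentage points on average (exact permutation test, two-sided, p = 0.333), and without test 2 by -0.46. A locus with peaks in every tumor except test 2 was found for 1.66% of all covered genes. All but one of the regions lay within 10 kb upstream of the start, and none was inside the gene. One region 7.51 kb upstream was shared by the other 3 tumors, covered for 325, 469 and 210 bp. Control 1 alone had a peak within 1 kb of the start, one of 304 bp. The region away from this upstream stretch, chr6:112427912-112428927 (1016 bp), was found in control 2 alone, 61.5 kb downstream of the start. Upstream, control 2 had 469 bp in peaks, and test 1 had 600, 210 and 253 bp. Control 2 thus exceeded test 1 only through that distant region.

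**Figure D3:**
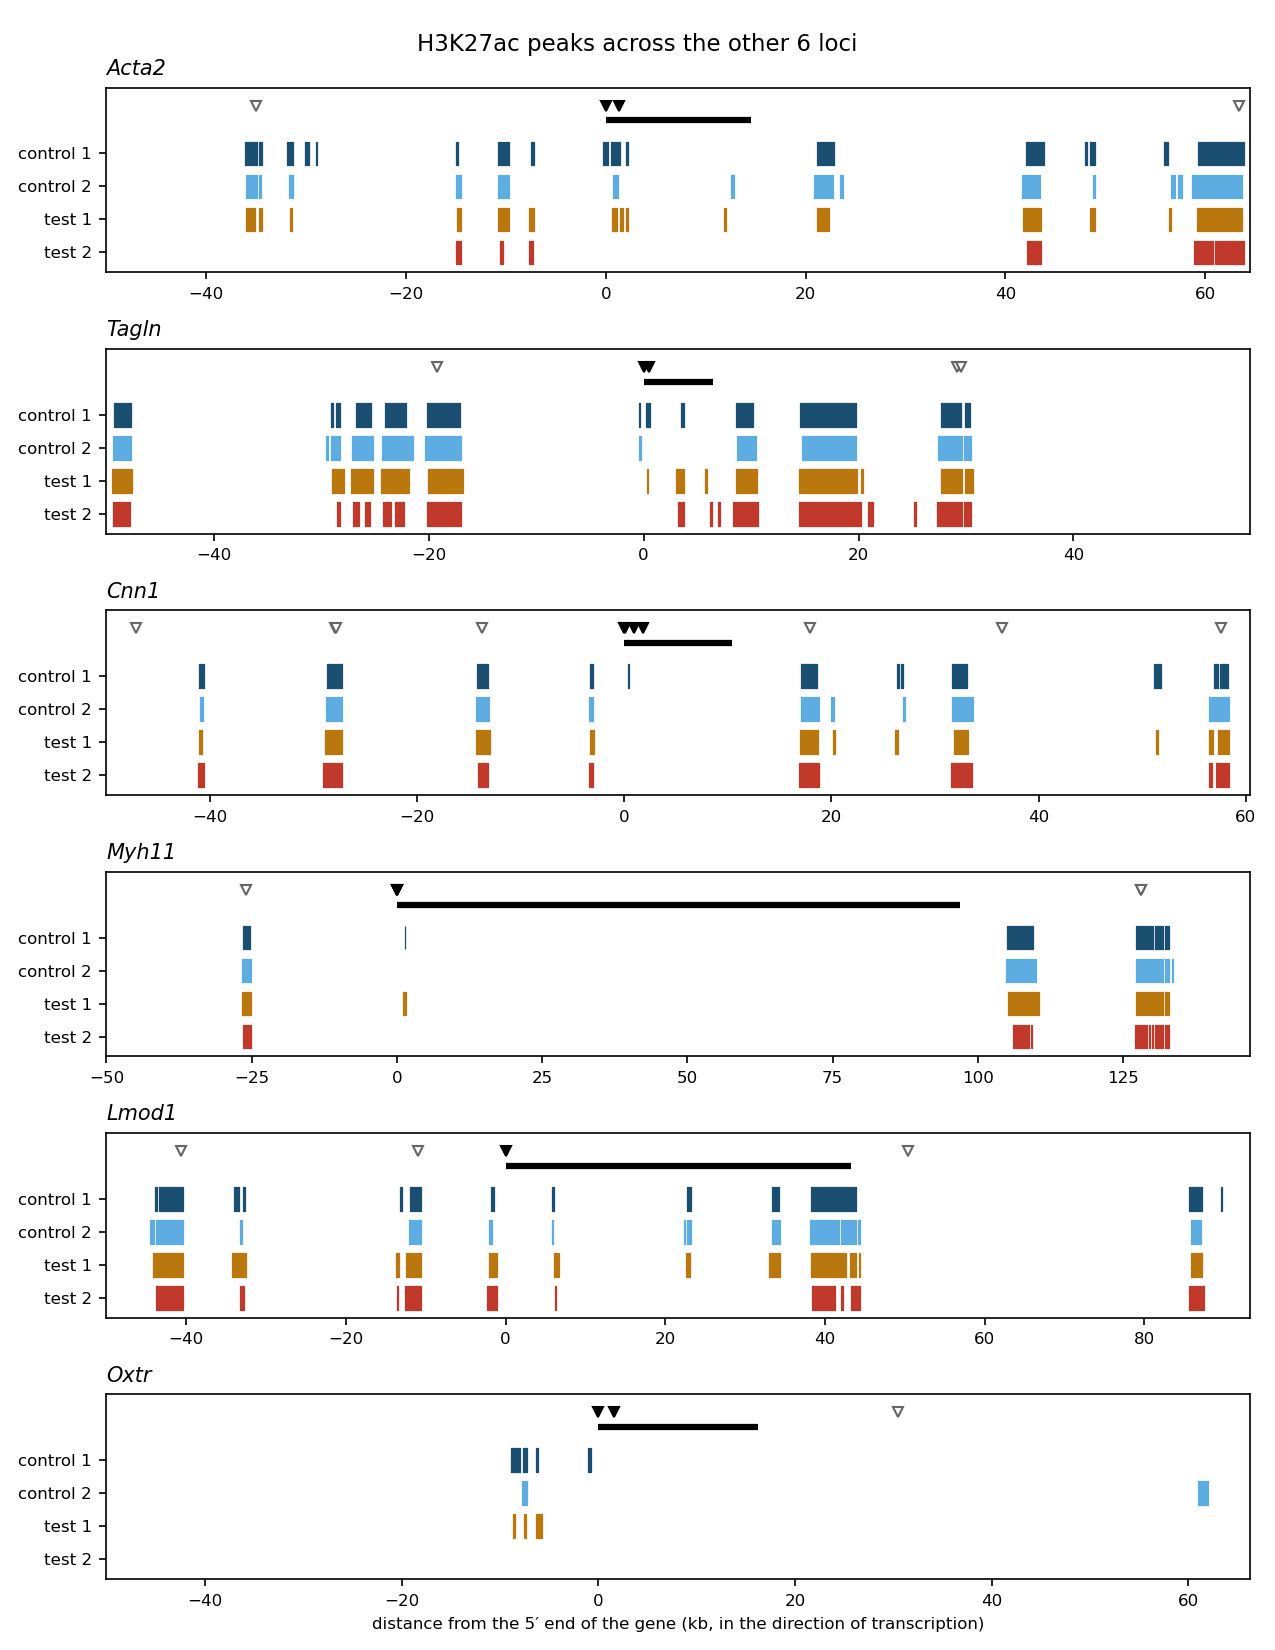
Peaks in each tumor along the other 6 loci, by distance from the 5′ end of the gene in kb (x axis), with symbols as in the map of Trp63 and Mylk. The blocks at open triangles are shared by all 4 tumors at Tagln and Cnn1, whereas blocks within 1 kb of the 5′ end are seen in 3 tumors at Acta2 and Tagln, in control 1 alone at Cnn1 and Oxtr and in none at Myh11 and Lmod1, and the Oxtr locus has 0 peaks in test 2.

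At the promoters, taken as 1 kb on either side of the annotated 5′ end, 0 of the 8 genes had a peak in all 4 tumors, against 49.6% of all genes. Acta2 and Tagln had one in 3 tumors, Cnn1 and Oxtr in control 1 only, and the other 4 genes in none, as did 42.8% of all genes. Test 2 had no promoter peak at any of the 8 genes, beside 52.0% of all genes with one. Without test 2, 2 of the 8 had a promoter peak in every remaining tumor, beside 51.2%. Within 2.5 kb of the 5′ end, 1 of the 8, Lmod1, had one in all 4 tumors, beside 51.5%. The 5′ end is not the start of the ΔN forms of Trp63 or the internal start of Mylk, which had peaks in 3 and 4 tumors. The genes are called here by their names, and no myoepithelial layer is inferred.

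The 8 loci together held 148 regions. Of these, 45 (30.4%) were present in all 4 tumors beside 38.1% of all regions, 8 (5.41%) were control-only beside 3.41%, and 2 (1.35%) were test-only beside 1.47%. Trp63 gave 5 of the 8 control-only regions, and Cnn1, Tagln and Lmod1 gave 1 each. The control-only count rested on narrow peaks, since 1 was left when only peaks of 1 kb or more were used, and 1 when every list was trimmed to an equal number of its widest peaks. Regions present in every tumor except test 2 numbered 22 (14.9%) beside 6.38% of all regions, of which 8 were in Trp63, 6 in Acta2, 5 in Mylk, 2 in Lmod1 and 1 in Oxtr. Myh11, Cnn1 and Tagln had 0 of them. These 3 loci held 6, 12 and 18 regions, and the difference between loci was not tested.

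**Figure D4:**
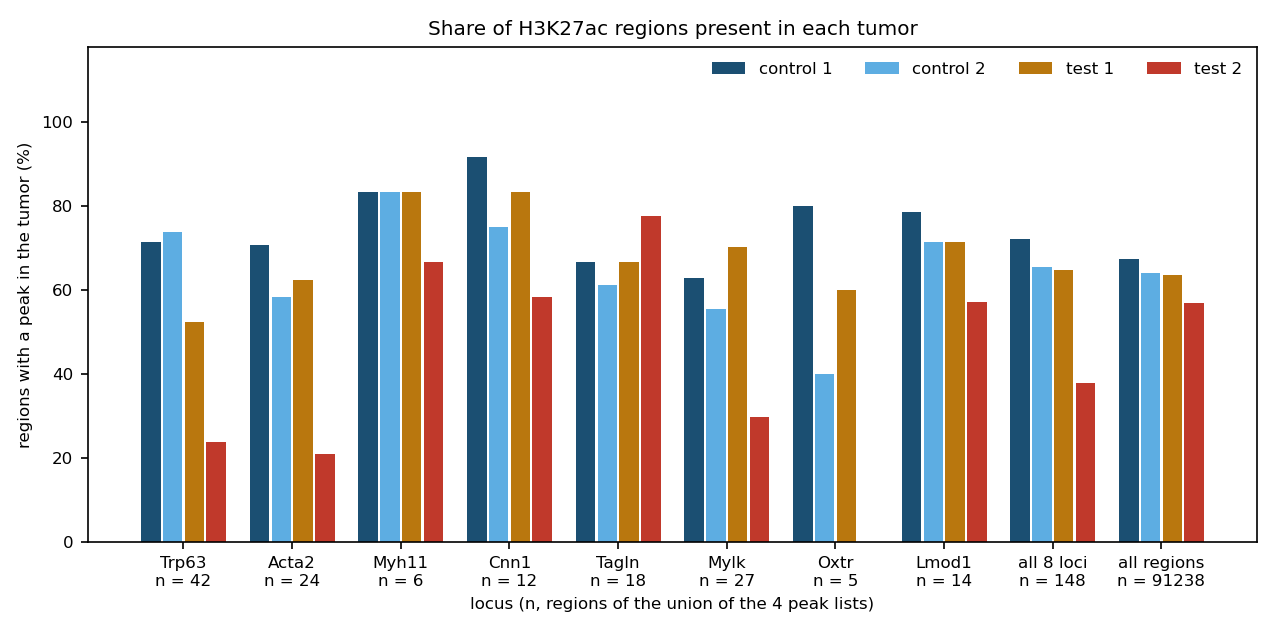
Share of regions (y axis, percent) that had a peak in each tumor, for each locus, for the 8 loci together and for all regions of the genome, with the number of regions under each name. Test 2 has a peak at 23.8% of the Trp63 regions and 20.8% of the Acta2 regions beside 57.0% of all regions, and at 77.8% of the Tagln regions.

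The covered length was also summed over the 8 loci by position. Regions at the starts of other genes numbered 15 in the 8 loci, and 13 of them were present in all 4 tumors. They covered 27.9 and 31.8 kb in the control tumors and 30.7 and 28.6 kb in the test tumors. Regions in the bodies of the 8 genes, away from any start, covered 47.5, 43.1, 42.7 and 16.8 kb in the same order, and regions at the genes' own starts 10.8, 5.97, 9.35 and 4.13 kb. The summed length in gene bodies was thus lowest in test 2, but 39 of the 68 body regions were in Trp63 and 17 in Mylk, and the neighbouring starts were in other loci, apart from 1 in the Mylk locus, so position and locus cannot be told apart in these sums. Of the 127 regions more than 1 kb from the 5′ end of every protein-coding gene, internal starts not counted as ends, 33.9% had a peak in test 2, beside 52.3% of all 78125 such regions. Of these 127, the regions missing in test 2 alone numbered 19 (15.0%), beside 6.91%. In control 1, control 2 and test 1 the shares with a peak were 67.7%, 63.0% and 62.2%, beside 63.7%, 59.7% and 59.1% of all.

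CArG boxes were counted over the whole width of the 148 regions, which held 15 of them in 13 regions. A box lay inside a peak for 12 and 10 of the 15 in the control tumors and for 12 and 4 in the test tumors, the last being 26.7%. Over the 5378 boxes in all regions the shares were 75.1%, 67.2%, 71.4% and 62.9%. The 4 boxes inside a peak of test 2 belonged to the Trp63 3′ flank, the region at the Elof1 start in the Cnn1 locus and the Tagln locus, and none to Acta2 or Mylk. In central windows of 300 bases, 3.38% of the 148 regions held a box beside 1.52% of all 91238 regions, and 4 of the 5 such windows were in Mylk. A box is a match of letters and was not shown to be bound.

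The genes of related function were set beside the 8. Among 22 other genes of the smooth muscle contractile apparatus, 6 were higher in both control tumors and 2 in both test tumors (13.0% and 17.3% of all genes), with a median difference of -0.30 percentage points. Cald1, the actin-binding caldesmon, had 16.7% and 13.6% in control and 10.9% and 9.77% in test tumors. Tpm2, a tropomyosin, differed by -4.62 percentage points, and Actn1, an actinin that links filaments, had 17.6% and 19.9% and then 14.3% and 17.6%. At Cald1 test 1 was nearly as low as test 2, which was not so at Trp63 or Acta2. Prkg1 and Rock1, kinases that act on light chain phosphorylation, were higher in the test tumors by 0.27 and 0.25.

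Of the 4 SRF and myocardin factors, which switch on the contractile set, 1 was higher in both test tumors and 0 in both control tumors (17.3% and 13.0% of all genes). It was Mrtfa, an SRF partner, with 5.85% and 6.97% in control and 8.06% and 9.78% in test tumors. Of 15 genes of oxytocin receptor signalling, 4 were higher in the control tumors and 2 in the test tumors (13.0% and 17.3% of all genes), with a median difference of 0.10. Itpr1, a calcium release channel, differed by -2.68 percentage points, Stim1, the sensor of stored calcium, by -0.75 and Plcb1, a phospholipase, by -0.53, while Orai1, the calcium entry channel, differed by 4.61 and Itpr3 by 1.23. Most of the pathway beyond the receptor had promoter peaks in every tumor (14 of 15 genes, beside 49.6% of all genes), unlike Oxtr itself.

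Among 20 basal epithelial genes, 4 were higher in both control tumors and 3 in both test tumors, shares of 20% and 15% that are near the 13.0% and 17.3% of all genes. Jag2, a Notch ligand, differed by -2.45 percentage points and Lama3, a laminin chain, by -0.59. In the other direction Itgb4, an integrin of hemidesmosomes, had 15.1% and 15.7% in control and 18.9% and 27.6% in test tumors, with test 2 the highest. Cdh3, P-cadherin, differed by 1.52 and Col17a1 by 0.25. The tumor with the least coverage of Trp63 thus had the most coverage of Itgb4.

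Among 14 luminal genes, 13 had coverage, 0 were higher in both control tumors and 4 in both test tumors (13.0% and 17.3% of all genes), with a median difference of 0.99 percentage points beside 0.02 over all genes. They were Esrp1, a splicing factor of epithelia (3.70), the receptors Kit (1.63) and Prlr (1.49), and the adhesion gene Epcam (1.16). Foxa1 was at 0 in every tumor, although 12 of the 14 luminal genes had a promoter peak in all 4 tumors. The share of all genes with a promoter peak in every tumor was 49.6%.

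Smooth muscle genes are also expressed by vessel walls, pericytes and activated fibroblasts, and markers of these cells moved with the result in part. Over all genes, the shares to set beside the counts that follow were 13.0% higher in both control tumors and 17.3% higher in both test tumors. Of 12 vascular smooth muscle and pericyte markers 3 were higher in the control tumors, Cspg4 (-1.57 percentage points), Ednra (-1.43) and Pdgfrb (-0.59), and 1 in the test tumors, Notch3 (1.93). The locus percentages of the 12 markers summed to 86.1% to 93.6% in control and 74.9% to 95.6% in test tumors. The pericyte marker Rgs5 was at 0 in 3 tumors and at 0.138% in test 2. Of 12 fibroblast markers, Dcn, Col1a2 and Fbn1 were higher in the control tumors and Fap in the test tumors. Their sum was 41.0% to 55.0% in control and 38.9% to 48.4% in test tumors, Lum was at 0 in every tumor, and Dcn and Col1a2 were at 0 in both test tumors. The summed coverage of both lists thus overlapped between the groups. Of 8 endothelial markers 4 were higher in the control tumors and 0 in the test tumors, led by Eng (-5.01), Erg (-0.71) and Cdh5 (-0.68), with sums of 48.9% to 50.6% and 39.6% to 45.3%. This was the only one of the 5 non-epithelial marker lists whose sums did not overlap between the groups, as was also so for the contractile apparatus list (195% to 197% in control and 177% to 184% in test tumors). Of 7 skeletal muscle markers 1, Tnnt3, was higher in the control tumors (sums of 41.1% to 44.4% and 34.4% to 46.2%). Of 5 myeloid markers 2, Itgam and Ptprc, were higher there (34.1% to 35.0% and 26.2% to 35.0%). The part of these cells in the differences at Trp63, Acta2 and Oxtr was not tested.

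**Figure D5:**
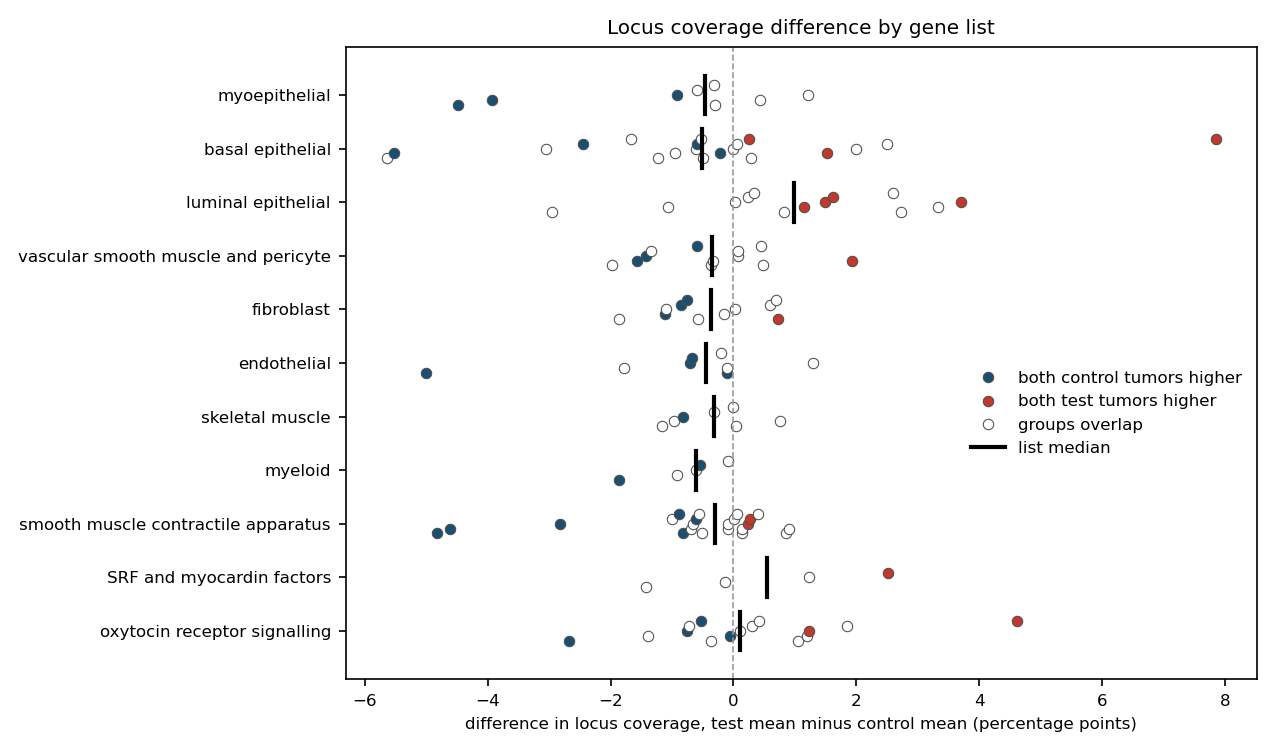
Difference in locus coverage (x axis, test mean minus control mean, percentage points) of each gene of the 11 lists (rows), with blue points where both control tumors are higher, red where both test tumors are higher, white where the groups overlap, and a black bar at the list median. The myoepithelial median is at -0.46 and the luminal one at 0.99, and the basal genes spread to both sides.

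For 6 of the 8 genes the most alike of the 119 list genes is given, the one with the smallest Euclidean distance in locus coverage over the 4 tumors, which is a description over 4 points. For Oxtr it was the basal regulator Snai2, at a distance of 0.539 percentage points. Acta2 was nearest to Itpr1 (2.51), Mylk to Ednra (1.31) and Myh11 to Actg2, a smooth muscle actin (1.07). Lmod1 was nearest to Krt14 (1.97) and Tagln to Epcam (3.04). Krt14, whose promoter drives the transgene, had 11.9% and 9.97% in control and 11.2% and 9.42% in test tumors.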

How the data were processed

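H3K27ac ChIP-seq was done on 4 tumors, 2 per group, with matched inputs that were not analysed here. The authors aligned reads to mm10 with BWA and called peaks in each tumor with MACS2 against its input. The deposited lists hold only peak positions, in base pairs and no other unit, and per the file names they had been cleaned and merged. The smallest gap between peaks was 201 bp, and what was cleaned was not stated. Groups came from the genotype label, and tumor numbers only name a tumor.

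Peaks were intersected with GENCODE M21 protein-coding genes (21938 on 21 chromosomes) in Python 3.11.15 with NumPy 2.4.6, and figures were drawn with matplotlib 3.10.9. A locus was the gene body and 50 kb either side, a promoter 1 kb either side of the 5′ end, and a region any overlapping or touching peaks of the 4 tumors, present in a tumor with at least 1 bp of peak. No interval ended past its chromosome (0). The scripts were tested on simulated data. The 8 genes and the gene lists were chosen with earlier results of these data known. Named list genes were at most 3 per direction with the largest difference among those whose groups did not overlap, and markers at 0 in every tumor. For each gene the widest shared, control-only and test-only regions, and the list gene nearest in coverage, were named. Sequences came from GRCm38 and the RefSeq promoter table, where Trp63, Myh11 and Tagln were not found. By the rule fixed for sequences only promoters with a strict CArG box were to be printed, and the Acta2 and Mylk windows were added after the boxes were seen. Each mouse gave 1 tumor, depth is unknown, so values carry no counting error. Results for some list genes are not reported here. Alternatives covered peak width, peak number, flank, neighbouring starts, promoter and region definitions, and leaving out each tumor.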

Additional observations from a re-analysis of the deposited data

How the results depend on the processing

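The median difference over the 8 genes was -0.46 percentage points. It ranged from -0.34 to -0.80 under the alternatives with all 4 tumors, from -1.33 to 0.0515 when 1 tumor was left out, and the 0.0515 was without test 2. The number of genes whose groups did not overlap was 3, or 2 to 4 with all tumors, and 4 to 6 with 1 tumor left out, where fewer tumors make overlap rarer by construction. The genes were not always the same. With a 10 kb flank Oxtr dropped out and Tagln entered with both test tumors higher (a difference of 3.99 percentage points). In the gene body alone the 2 genes were Trp63, higher in control, and Tagln, higher in test tumors. Trp63 and Acta2 had negative differences in all 10 settings tried, from -7.44 to -1.53 and from -6.28 to -1.57, and Oxtr in 9, with 0 in the gene body alone. No difference of these 3 genes changed sign, but the groups overlapped at Acta2 in the gene body alone and at Oxtr with a 10 kb flank.

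The 8 control-only regions became 1 with peaks at least 1 kb wide, 1 with equal numbers of the widest peaks and 3 with peaks within 1 kb joined, and ranged from 8 to 31 with 1 tumor left out. The 2 test-only regions became 1 with a 10 kb flank and 1 with peaks within 1 kb joined, and ranged from 3 to 15 with 1 tumor left out. No gene had a promoter peak in all 4 tumors (0), 1 had with a promoter of 2.5 kb either side and 1 with any annotated start, and leaving out 1 tumor gave 0 to 2. Of the 10 other lists, 7 had a median difference below 0, and 4 to 8 with 1 tumor left out, the lowest without test 2. The cause of these changes was not tested.

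No paired analysis was possible because the labels give the tumors no replicate numbers that pair them across groups. The lists hold no score or read count, so a shorter peak and a shallower library cannot be told apart, and width stood in for a stricter threshold.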
